A study of Solanum lycopersicum with 6 samples.

Results

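The ethylene branch of tomato fruit ripening is described here through 8 of the 21708 genes listed in any library. They were chosen by gene identifier: the ACC synthases ACS2 (Solyc01g095080), ACS4 (Solyc05g050010) and ACS6 (Solyc08g008100), the ACC oxidases ACO1 (Solyc07g049530), ACO3 (Solyc07g049550) and ACO4 (Solyc02g081190), and the ethylene-responsive ripening genes E4 (Solyc03g111720) and E8 (Solyc09g089580). Of the 8, 7 were listed in at least 1 library, 6 were listed in all 6 libraries and the same 6 passed the filter on low counts. RNA was sequenced from exocarp, the outer layer of the fruit with the epidermis and its cuticle. The 3 tested libraries came from a tomato carrying a knockout of SlNOR-like1, a NAC transcription factor (nor-like1), and the 3 others from wild-type (WT) tomato, all at the stage labelled MG. The labels name no cultivar, plant or age; the header of the authors' comparison calls the mutant nor-like1-1 and says no more of the line or allele. The labels leave unsaid whether replicates are different plants, so each p-value measures library-to-library spread that may be technical.

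Plants make ethylene from methionine. S-adenosylmethionine synthase activates methionine, ACC synthase (ACS) turns S-adenosylmethionine into 1-aminocyclopropane-1-carboxylate (ACC), and ACC oxidase (ACO) turns ACC into ethylene; the Yang cycle returns the sulfur group to methionine. In tomato, vegetative tissue and unripe fruit make little ethylene and hold its synthesis down (system 1), with ACS1A and ACS6 as the known fruit ACC synthases of that phase. At ripening synthesis becomes self-amplifying (system 2), with ACS2 and ACS4 as its ACC synthases. E4 and E8 were named as genes whose transcripts rise when fruit are exposed to ethylene.

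Library depth lay between 8503210 and 11023036 expected counts in nor-like1 and between 11459875 and 17578533 in WT, so every WT library was the deeper. The SlNOR-like1 transcript (Solyc07g063420.3) measured 15.99, 10.93 and 11.72 FPKM (fragments scaled by transcript length and library size) in nor-like1 replicates 1 to 3, against 83.78, 75.19 and 81.17 FPKM in WT replicates 1 to 3. Every nor-like1 value lay below every WT value (log2 fold change -2.61, SE 0.162, edgeR adjusted p = 0.000532). All 6 exocarp markers, genes of cuticle wax and cutin, were listed in every library, with a summed level of 341.1 to 382 FPKM in nor-like1 and 228.1 to 301.7 FPKM in WT. The markers were split: 2 rose (CER6 and MYB31), 2 fell (CYP86A69 and GPAT6) and 2 did not pass. Over all tested genes 10.5% rose and 11.4% fell. Most of the marker sum was CER6, at a mean of 226.2 FPKM in nor-like1 and 127.3 FPKM in WT. The seed list summed to 144.2 to 157.6 FPKM in nor-like1 and 198.6 to 217.1 FPKM in WT; its pattern also takes lipid-transfer proteins, and its 16 genes with an oleosin or vicilin best hit reached at most 6.13 FPKM in nor-like1 and 12.83 FPKM in WT, and 2 of them were at 0 in all nor-like1 libraries and 2 others in all WT libraries. The 1 xylem gene measured 23.71 to 29.32 FPKM in nor-like1 and 17.89 to 19.76 FPKM in WT. The part of these shifts in the results that follow was not tested, and in whole tissue fewer cells of a type and less RNA per cell cannot be told apart. On the first principal component, which held 70.1% of the variance of the tested genes, nor-like1 replicates 1 to 3 lay at 41.0, 60.8 and 57.8 and WT replicates 1 to 3 at -74.6, -61.8 and -23.2, so that WT replicate 3 lay nearest to the nor-like1 libraries.

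None of the 6 tested ethylene genes passed the threshold of an adjusted p below 0.05 over 16380 genes in edgeR's quasi-likelihood test, a threshold that 21.9% of all tested genes passed. At an unadjusted p below 0.05 only ACS2 passed, where 37.9% of all genes did. DESeq2 called 0 of 7 (1 at an unadjusted p below 0.05, and E8 without an adjusted p) and limma on log2(FPKM + 1) called 0 of 6 (1 at an unadjusted p below 0.05). The median log2 fold change of nor-like1 over WT was 0.73 over the 6 tested genes and -0.01 over all tested genes. Only ACS2 had nor-like1 and WT levels that did not overlap, with nor-like1 higher; over all tested genes 42.8% did not overlap, 19.0% with nor-like1 higher.

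**Figure D1:**
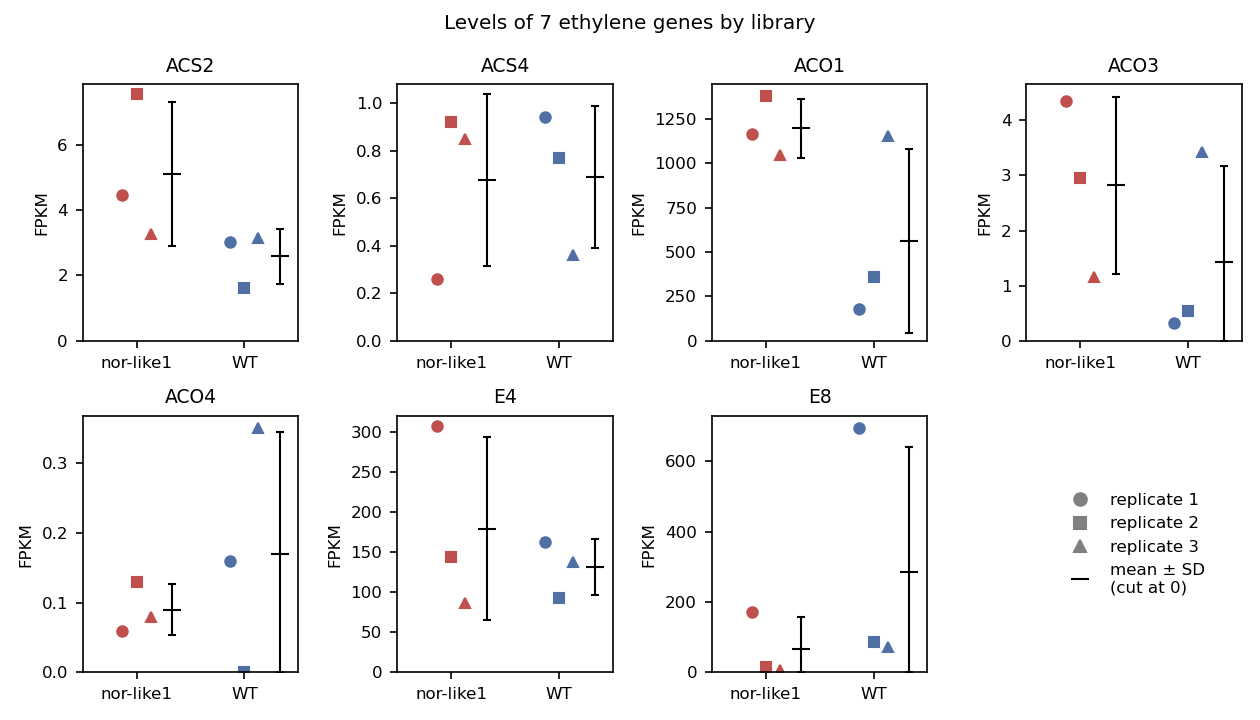
FPKM of 7 ethylene genes in each library, nor-like1 left and WT right (circle, square and triangle are replicates 1, 2 and 3; bars are mean ± SD, n = 3, ended at 0). The ACS2 points of nor-like1 lie above those of WT, whereas in each other panel the genotypes overlap; ACS6 is listed in no library and is not drawn.

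The ACC synthases of ripening were present at low levels. ACS2 measured 4.46, 7.54 and 3.27 FPKM in nor-like1 replicates 1 to 3, against 3.01, 1.62 and 3.13 FPKM in WT replicates 1 to 3. Each nor-like1 library lay above each WT library, though nor-like1 replicate 3 exceeded WT replicate 3 by little. The means were 5.09 ± 2.20 FPKM in nor-like1 and 2.587 ± 0.839 FPKM in WT (SD, n = 3 each), which gave a log2 fold change of 0.99 (SE 0.372, edgeR adjusted p = 0.1; exact two-sided permutation p = 0.1, the smallest 3 against 3 can give). Leaving out 1 library gave log2 fold changes between 0.59 and 1.23, with adjusted p between 0.0832 and 0.295. The values rest on 291 expected counts in nor-like1 and 226 in WT.

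ACS4, the second ACC synthase of system 2, was lower still. It measured 0.26, 0.92 and 0.85 FPKM in nor-like1 replicates 1 to 3, against 0.94, 0.77 and 0.36 FPKM in WT replicates 1 to 3. The genotypes overlapped throughout, and the means of 0.6767 ± 0.363 FPKM in nor-like1 and 0.69 ± 0.298 FPKM in WT (SD, n = 3 each) gave a log2 fold change of -0.02 (SE 0.559, edgeR adjusted p = 0.982; exact permutation p = 0.9). Its sign changed with the library left out (-0.36 to 0.39) and with the scaling (0.01 with upper-quartile factors). The values rest on 6 to 20 expected counts per nor-like1 library and 12 to 34 per WT library.

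ACS6, under the identifier Solyc08g008100, was listed in none of the 6 libraries, so its level is 0 in each and no fold change is given. A neighbouring identifier, Solyc08g008110.3, has the RefSeq protein of ACS6 as its best protein hit. It measured 57.93, 109.53 and 141.4 FPKM in nor-like1 replicates 1 to 3, against 63.29, 45.77 and 97.78 FPKM in WT replicates 1 to 3. The genotypes overlapped (means 103 ± 42.1 FPKM in nor-like1 and 68.95 ± 26.5 FPKM in WT, SD, n = 3 each; log2 fold change 0.60, SE 0.394, edgeR adjusted p = 0.312). Per transcript length it stood far above ACS2 and ACS4 in both genotypes.

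Among the ACC oxidases, ACO1, the main fruit isoform, had the highest mean level of the 8 genes in both genotypes, though in WT replicate 1 E8 stood above it. It measured 1167, 1376 and 1046 FPKM in nor-like1 replicates 1 to 3, against 181.3, 357.7 and 1153 FPKM in WT replicates 1 to 3. The nor-like1 libraries lay close together, with the highest 1.32 times the lowest, while in WT the highest was 6.36 times the lowest and WT replicate 3 fell within the nor-like1 range. The means were 1196 ± 167 FPKM in nor-like1 and 564.2 ± 518 FPKM in WT (SD, n = 3 each), with a log2 fold change of 1.12 (SE 0.633, edgeR adjusted p = 0.247; exact permutation p = 0.2). Without WT replicate 3 it was 2.16 and passed the threshold (adjusted p = 0.00648); across the libraries left out in turn it lay between 0.71 and 2.16. WT replicate 3 is also the WT library nearest to nor-like1 on the first principal component; the part of that in the ACO1 level was not tested.

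ACO3 lies beside ACO1 in the RefSeq gene table (assembly SLM_r2.1), with 1 protein-coding gene between them. It measured 4.35, 2.96 and 1.15 FPKM in nor-like1 replicates 1 to 3, against 0.32, 0.55 and 3.43 FPKM in WT replicates 1 to 3. As for ACO1, WT replicate 3 was the highest WT library and replicates 1 and 2 were low. The means were 2.82 ± 1.60 FPKM in nor-like1 and 1.433 ± 1.73 FPKM in WT (SD, n = 3 each), with a log2 fold change of 0.99 (SE 0.897, edgeR adjusted p = 0.461; exact permutation p = 0.3). Without WT replicate 3 it was 2.69 with an adjusted p of 0.0261, past the threshold; over the libraries left out in turn it lay between 0.50 and 2.69.

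Reads of ACO1 and ACO3 were divided between the pair by the authors' counting. The expected counts of both were not whole numbers in 5 of 6 libraries (tolerance 0.005), while their sum was whole in all 6; those of the other listed genes among the 8 were whole in all 6. ACO3 held 0.316, 0.182 and 0.093% of the ACO1 counts in nor-like1 replicates 1 to 3 and 0.152, 0.129 and 0.252% in WT replicates 1 to 3. The ACO3 level, and its resemblance to ACO1, is therefore uncertain. Its naming is uncertain too. The deposited best protein hit calls Solyc07g049550.3 ACC oxidase 4, and RefSeq lists ACO3 and ACO4 as synonyms of that hit's gene while giving the symbol ACO3 to the gene of the E8 hit.

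ACO4 was close to the detection limit. It measured 0.06, 0.13 and 0.08 FPKM in nor-like1 replicates 1 to 3, against 0.16, 0 and 0.35 FPKM in WT replicates 1 to 3, where the 0 is a library that does not list it. The levels came from 1, 2 and 1 expected counts in nor-like1 and 4, 0 and 8 in WT, and a count of 0 still allows 3 counts. It did not pass the filter and has no fold change here (exact permutation p = 0.6 on FPKM).

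E4 encodes a peptide methionine sulfoxide reductase. It measured 307.4, 143.5 and 87.0 FPKM in nor-like1 replicates 1 to 3, against 162.0, 93.04 and 137.6 FPKM in WT replicates 1 to 3. The highest and the lowest of the 6 values were both nor-like1 libraries. The means were 179.3 ± 115 FPKM in nor-like1 and 130.9 ± 35 FPKM in WT (SD, n = 3 each), with a log2 fold change of 0.48 (SE 0.467, edgeR adjusted p = 0.489; exact permutation p = 0.8). Without nor-like1 replicate 1 it was -0.14, and the range over the libraries left out in turn was -0.14 to 0.81.

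E8 encodes an oxidase of the 2-oxoglutarate and iron family to which the ACC oxidases belong. It measured 172.3, 15.75 and 7.63 FPKM in nor-like1 replicates 1 to 3, against 694.2, 87.7 and 72.1 FPKM in WT replicates 1 to 3. Replicate 1 stood far above the other two libraries in both genotypes, and nor-like1 replicates 2 and 3 were below all WT libraries while nor-like1 replicate 1 was higher than 2 WT libraries. The within-genotype standard deviation of E8 on the log2 CPM scale was 2.1, larger than in 99.9% of the tested genes. The means were 65.21 ± 92.8 FPKM in nor-like1 and 284.7 ± 355 FPKM in WT (SD, n = 3 each), with a log2 fold change of -2.13 (SE 1.43, edgeR adjusted p = 0.322; exact permutation p = 0.5). Without nor-like1 replicate 1 the log2 fold change was -4.58 (adjusted p = 0.091), without WT replicate 1 it was -0.27 (adjusted p = 0.903), and without nor-like1 replicate 3 it was -1.60. The labels set replicate 1 apart in neither genotype.

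**Figure D2:**
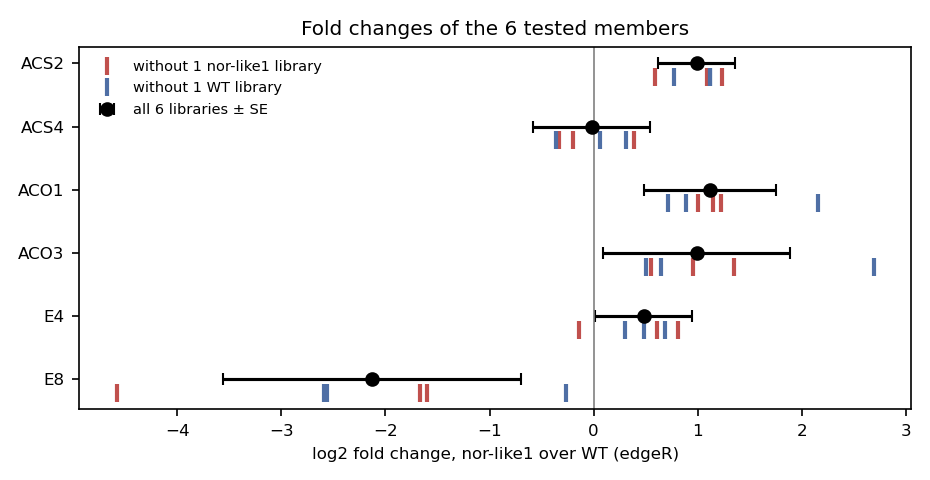
Log2 fold change of nor-like1 over WT for the 6 tested ethylene genes (black point and bar, edgeR estimate ± SE over all 6 libraries) with the same value without each nor-like1 library (red ticks) and each WT library (blue ticks). The ticks of E8 run from -4.58 to -0.27, and those of ACO1 and ACO3 reach 2.16 and 2.69 without WT replicate 3.

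All 6 tested genes varied more within a genotype than most genes did. The within-genotype standard deviation on the log2 CPM scale was 0.559 for ACS2, 0.704 for E4, 0.777 for ACS4, 0.945 for ACO1, 1.27 for ACO3 and 2.1 for E8. These exceeded the values of 90.4% (ACS2) to 99.9% (E8) of the tested genes. The ranking takes genes of every level, and counting noise is larger on the log2 scale at low counts. ACS4 rests on 41 counts in nor-like1 and 64 in WT, and ACO3 on 109.06 and 82.37. The part of that noise was not tested. Among the 12 tested ripening genes described below, this share ran from 29.8% (TAGL1) to 100% (PG2a). PSY1 lay at 98.1%, NOR at 95.6% and CNR at 56.5%. By mean FPKM the order in nor-like1 was ACO1, E4, E8, ACS2, ACO3, ACS4, ACO4 and ACS6, with ranges that overlapped between E4 and E8 and between ACS2 and ACO3. In WT the order was ACO1, E8, E4, ACS2, ACO3, ACS4, ACO4 and ACS6, where ACO1 overlapped E8, E8 overlapped E4, ACS2 overlapped ACO3, ACO3 overlapped ACS4 and ACO4 overlapped ACS6. In the authors' deposited table, the log2 fold changes were 0.86 for ACS2, -0.01 for ACS4, 0.79 for ACO1, 0.61 for ACO3, -0.24 for ACO4, 0.42 for E4 and -0.63 for E8, and the lowest adjusted p among them was 0.0713 (ACS2).

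Summed over the ripening ACC synthases, ACS2 and ACS4 held 4.72, 8.46 and 4.12 FPKM in nor-like1 replicates 1 to 3, against 3.95, 2.39 and 3.49 FPKM in WT replicates 1 to 3. The sums did not overlap (log2 ratio of means 0.82, exact permutation p = 0.1, the smallest possible; 0.43 to 1.01 with 1 library left out). The ACC oxidase sum was 1171, 1379 and 1047 FPKM in nor-like1, against 181.8, 358.2 and 1157 FPKM in WT, a log2 ratio of 1.08 (exact permutation p = 0.2). Without WT replicate 3 this ratio was 2.15.

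Over every gene described as an ACC synthase, 11 listed genes, the pool was 233.7, 405.5 and 413.8 FPKM in nor-like1 and 215.8, 189 and 295.1 FPKM in WT (log2 ratio 0.59, exact permutation p = 0.2). ACS1A, a system 1 isoform, made up a mean of 47.6% of it in nor-like1 and 39.1% in WT. Reads were divided between ACS1A and its near relative ACS1B, so this share depends on that division. Solyc08g008110.3 made up 28.7% in nor-like1 and 28.9% in WT, while ACS2 made up 1.52% in nor-like1 and 1.10% in WT. The pool also holds Solyc03g007070.3 and Solyc08g079750.3, whose best protein hits are named probable aminotransferases. They made up 5.21 and 2.92% of it in nor-like1 and 11.5 and 7.5% in WT. The ratio and the shares include them. The ACC oxidase pool held 11 listed genes. Of these, 5 are described as 2-oxoglutarate oxygenases and have best hits named ACC oxidase 5 or ACC oxidase-like. The pool left out E8 and 13 genes with best hits named ACC oxidase homologs. Those 13 summed to 168.1 to 183.4 FPKM in nor-like1 and 157.8 to 205.7 FPKM in WT. The pool was dominated by ACO1 in every library. ACO1 was 91.1, 95.7 and 95.0% of it in nor-like1 replicates 1 to 3 and 58.5, 78.2 and 92.8% in WT replicates 1 to 3. ACO5 was 4.1, 1.57 and 1.89% of it in nor-like1 and 22.4, 14.7 and 4.67% in WT.

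**Figure D3:**
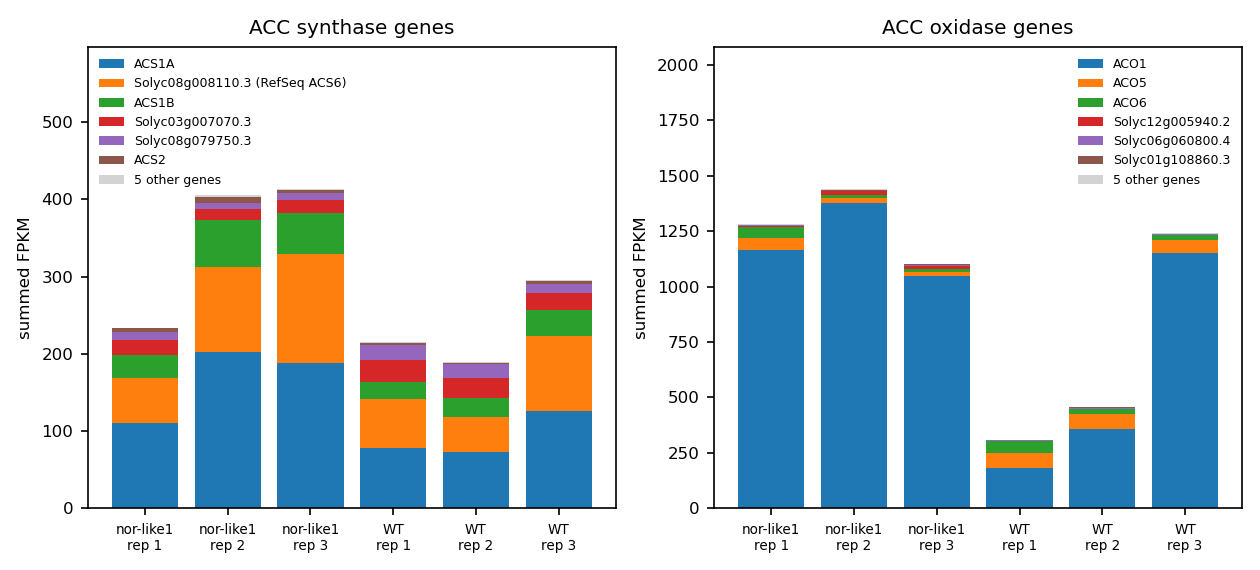
Summed FPKM of all genes described as ACC synthase (left) or ACC oxidase (right) in each library, nor-like1 left and WT right, stacked by gene. E8 and the genes named ACC oxidase homologs are left out. ACS1A and Solyc08g008110.3 form most of the ACC synthase pool, and ACO1 forms 91.1 to 95.7% of the ACC oxidase pool in nor-like1 and 58.5 to 92.8% in WT.

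The other genes of ethylene synthesis, found by their descriptions or best protein hits, numbered 46, of which 35 were tested. In nor-like1, 6 rose, 6 fell and 23 did not pass the test, with a median log2 fold change of 0.20 against -0.01 over all tested genes; 10.5% of all tested genes rose and 11.4% fell. The step that supplies methionine was divided. Cystathionine gamma-synthase (CGS, Solyc02g067180.3), the first committed enzyme of methionine synthesis, rose to 417.2, 291.6 and 270.1 FPKM in nor-like1 replicates 1 to 3, against 187.3, 182.4 and 184.7 FPKM in WT (log2 fold change 0.84, SE 0.178, edgeR adjusted p = 0.0188). The methionine synthase ER69 (Solyc10g081510.2), described in the files as ethylene-responsive, rose to 173.4, 201.9 and 229.6 FPKM in nor-like1, against 104.6, 112.9 and 148.7 FPKM in WT (log2 fold change 0.75, SE 0.17, adjusted p = 0.0232). The call of CGS was lost without WT replicate 1 (adjusted p = 0.061) or WT replicate 2 (0.0764), and that of ER69 without nor-like1 replicate 2 or 3 or WT replicate 1 or 2 (0.0742 to 0.095).

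A pair of cystathionine beta-lyase genes, whose enzyme acts between CGS and methionine synthase, fell. Solyc08g066620.3 measured 4.92, 5.46 and 4.88 FPKM in nor-like1, against 9.99, 11.3 and 9.68 FPKM in WT (log2 fold change -1.02, SE 0.11, adjusted p = 0.00293), and its call held with each library left out in turn. Solyc04g055230.2 was lower too, at a mean of 0.3 FPKM in nor-like1 and 0.7433 FPKM in WT (log2 fold change -1.28, SE 0.369, adjusted p = 0.0478), and its call was lost without any 1 of the 6 libraries (adjusted p 0.0847 to 0.131). Another gene described as cystathionine beta-lyase, Solyc10g079720.2, had a higher level than either, at a mean of 16.47 FPKM in nor-like1 and 17.24 FPKM in WT. It gave -0.04 on the log2 scale (adjusted p = 0.849).

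Of the 4 S-adenosylmethionine synthases, 2 rose and none fell, where 10.5% of all tested genes rose and 11.4% fell. Solyc10g083970.1 rose to 89.7, 133.4 and 189.9 FPKM in nor-like1 replicates 1 to 3, against 49.41, 38.52 and 74.89 FPKM in WT (log2 fold change 1.36, SE 0.343, edgeR adjusted p = 0.0369). The S-adenosylmethionine synthase 3 gene Solyc09g008280.2 rose to 306.2, 538.3 and 527.4 FPKM in nor-like1, against 178.2, 204.1 and 308.4 FPKM in WT, where nor-like1 replicate 1 lay just below WT replicate 3 (log2 fold change 1.02, SE 0.284, adjusted p = 0.0452). Both calls were lost without nor-like1 replicate 2 or 3 or WT replicate 1 or 2, with adjusted p of 0.0902 to 0.111 for Solyc10g083970.1 and 0.127 to 0.149 for Solyc09g008280.2. The gene with the highest level of this step, SAM1 (Solyc01g101060.4), measured 5445, 3761 and 4223 FPKM in nor-like1, against 3208, 3381 and 3400 FPKM in WT, and was not called (log2 fold change 0.45, SE 0.172, adjusted p = 0.104).

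Outside the 8 genes, 6 further ACC synthase genes were tested, of which 2 fell and none rose, where 11.4% of all tested genes fell and 10.5% rose. The median log2 fold change of the 6 was 0.74, against -0.01 over all tested genes. Both that fell have best protein hits named as probable aminotransferases (ACS10 and ACS12), a branch of the family whose Arabidopsis members act as amino acid aminotransferases and not as ACC synthases. Solyc03g007070.3 measured 18.77, 14.17 and 16.96 FPKM in nor-like1, against 28.88, 25.72 and 22.34 FPKM in WT (log2 fold change -0.61, SE 0.151, adjusted p = 0.0309; not called without nor-like1 replicate 2 or 3 or WT replicate 1 or 2, 0.0858 to 0.102). Solyc08g079750.3 measured 10.63, 7.4 and 9.88 FPKM in nor-like1, against 19.7, 17.75 and 11.74 FPKM in WT (log2 fold change -0.80, SE 0.232, adjusted p = 0.0498). Its call was lost without any 1 library other than WT replicate 3 (0.0622 to 0.15). With all 6 libraries it was lost with upper-quartile (0.0571) or RLE factors (0.0513), in limma (0.0504 to 0.0713) and with the replicate block (0.0628). It held under the other alternatives, with an adjusted p of 0.0151 in DESeq2. ACS1A (Solyc08g081550.4) was not called, at 110.8, 202.5 and 187.5 FPKM in nor-like1 and 78.29, 72.78 and 125.5 FPKM in WT (log2 fold change 0.88, SE 0.294, adjusted p = 0.0751). ACS1B (Solyc08g081535.1), a near relative, gave 0.90 (SE 0.291, adjusted p = 0.0715). The expected counts of ACS1A and ACS1B were not whole in any library, while the sum of the pair was whole. As for ACO1 and ACO3, reads were thus divided between the pair by the authors' counting.

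The ACC oxidase gene Solyc12g005940.2, with the best protein hit ACC oxidase 2, rose to 6.3, 17.63 and 13.36 FPKM in nor-like1 replicates 1 to 3, against 0.23, 0.27 and 0.44 FPKM in WT. Its log2 fold change was 5.28 (SE 0.509, edgeR adjusted p = 0.00251), and the ratio of depth-scaled counts, 365 in nor-like1 over 14 in WT, was 39.9 (95% interval 23.5 to 73.8, counting error only). It passed the filter on low counts only through nor-like1, where it is high. Its expected counts were 69, 183 and 113 in nor-like1 replicates 1 to 3, against 4, 3 and 7 in WT. With no such filter its log2 fold change was 5.29 (edgeR adjusted p = 0.00106). It stayed past the threshold without each library in turn. Even so it was a small part of the pool beside ACO1. ACO5 was at 52.51, 22.51 and 20.86 FPKM in nor-like1, against 69.33, 67.42 and 58.07 FPKM in WT, without overlap and without passing the test (log2 fold change -1.0, SE 0.366, adjusted p = 0.0987). ACO6 had 47.67, 13.68 and 13.19 FPKM in nor-like1 and 51.33, 24.43 and 20.21 FPKM in WT (log2 fold change -0.35, adjusted p = 0.705), with replicate 1 the highest of both genotypes, as for E8.

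Genes named ACC oxidase homologs are members of the oxidase family that E8 belongs to, without established ACC oxidase activity. Of 8 tested, 1 rose and 2 fell, where 10.5% of all tested genes rose and 11.4% fell. Solyc09g089680.4 rose to 2.63, 1.0 and 1.52 FPKM in nor-like1 replicates 1 to 3, against 0.14, 0.07 and 0 FPKM in WT (log2 fold change 4.46, SE 0.747, edgeR adjusted p = 0.00948). It rests on 65 expected counts in nor-like1 and 4 in WT, with a depth-scaled ratio of 24.9 (95% interval 9.27 to 94.1, counting error only). With so few WT counts it passed the filter on low counts only through nor-like1, where it is high. With no such filter its log2 fold change was again 4.46 (edgeR adjusted p = 0.00671). Its call held without each library (3.86 to 5.51). In the RefSeq table it stands next to Solyc09g089690.3, with 0 protein-coding genes between them, and 13 protein-coding genes lie between it and E8. Solyc09g089690.3 fell, at 17.52, 22.12 and 23.48 FPKM in nor-like1 and 29.75, 28.49 and 29.74 FPKM in WT (log2 fold change -0.46, SE 0.129, adjusted p = 0.044), a call lost without any 1 library (0.0538 to 0.125). Solyc04g007980.3 fell, at 67.41, 48.36 and 49.08 FPKM in nor-like1 and 95.27, 101.2 and 97.96 FPKM in WT (log2 fold change -0.82, SE 0.145, adjusted p = 0.0112; 0.0508 without WT replicate 2). The highest of the 2 tested ACC oxidase-like genes, Solyc06g060800.4, gave -0.33 (SE 0.238, adjusted p = 0.341). The 3 tested genes of the Yang cycle and both ACC synthase turnover genes (ETO1 type) were not called, with log2 fold changes between -0.30 and 0.20; the highest in level were the nucleosidase gene Solyc01g111060.4, at -0.24 (adjusted p = 0.109), and Solyc09g055310.3, at -0.14 (adjusted p = 0.298).

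**Figure D4:**
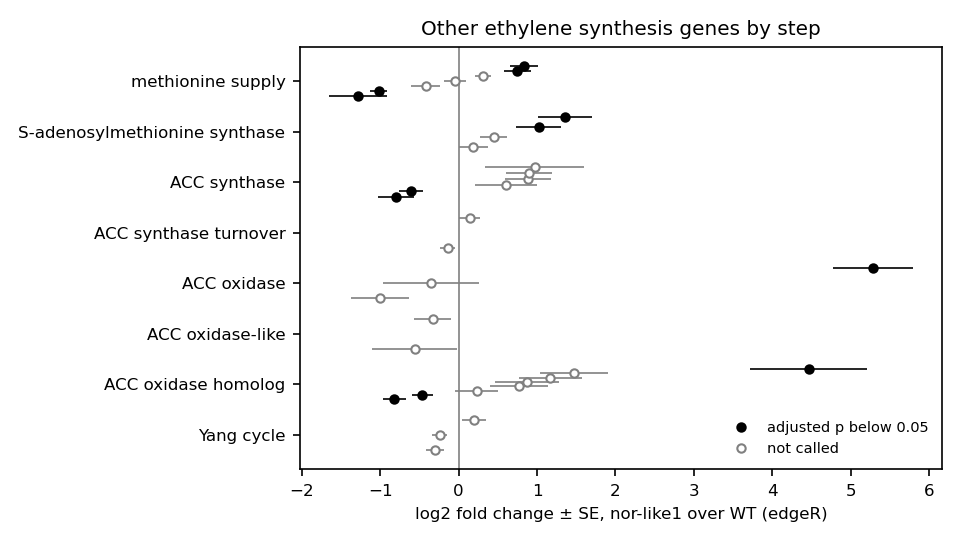
Log2 fold change ± SE of nor-like1 over WT (edgeR) for the 35 tested ethylene synthesis genes outside the 8, grouped by step from methionine supply to the Yang cycle (filled, adjusted p below 0.05). The 2 values farthest to the right are Solyc12g005940.2 at 5.28 and Solyc09g089680.4 at 4.46. Both passed the filter on low counts only through nor-like1.

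Among 13 genes known from ripening, 12 were listed and tested; RIN was not analysed here. In nor-like1, 1 rose, 1 fell and 10 did not pass, with a median log2 fold change of -0.21; over all tested genes 10.5% rose, 11.4% fell and the median was -0.01. CNR (Solyc02g077920.4), an SBP-box factor whose epimutation blocks ripening, fell to 150.6, 122.5 and 140.5 FPKM in nor-like1 replicates 1 to 3, against 342.2, 347.3 and 255.5 FPKM in WT (log2 fold change -1.18, SE 0.164, edgeR adjusted p = 0.00575), and its call held without each library. The pectate lyase PL (Solyc03g111690.4), which loosens the cell wall, rose to 18.5, 12.06 and 15.08 FPKM in nor-like1, against 3.82, 2.71 and 7.94 FPKM in WT (log2 fold change 1.67, SE 0.393, adjusted p = 0.0308). Its call was lost without any 1 library other than WT replicate 3 (0.0638 to 0.089).

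Several ripening genes with their highest level in replicate 1 of both genotypes, as for E8, were not called. The polygalacturonase PG2a (Solyc10g080210.2), an ethylene-dependent wall enzyme, measured 1.28, 0.35 and 0 FPKM in nor-like1 replicates 1 to 3, against 31.71, 1.86 and 0.54 FPKM in WT (log2 fold change -4.30, SE 1.78, adjusted p = 0.133). PSY1, the first enzyme of fruit carotenoid synthesis, measured 314.3, 69.77 and 53.38 FPKM in nor-like1, against 203.2, 78.54 and 102.3 FPKM in WT (log2 fold change 0.19, adjusted p = 0.872). NOR, a NAC factor needed for ripening, measured 149.6, 38.51 and 39.83 FPKM in nor-like1, against 81.67, 63.56 and 57.74 FPKM in WT (log2 fold change 0.18, adjusted p = 0.837). Of the 12 genes, 11 had their highest nor-like1 level in replicate 1, and 7 had their highest WT level in replicate 1. The ethylene receptor ETR4, the higher of 2 receptors, measured 142.5, 57.7 and 64.68 FPKM in nor-like1 replicates 1 to 3, against 115.5, 110.3 and 127.2 FPKM in WT (log2 fold change -0.40, adjusted p = 0.433). ETR3 (Never-ripe) measured 64.49, 26.94 and 26.2 FPKM in nor-like1, against 52.31, 31.12 and 48.22 FPKM in WT. ACS2 and ACO1 did not follow this order: both were highest in replicate 2 among the nor-like1 libraries and in replicate 3 among the WT libraries.

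**Figure D5:**
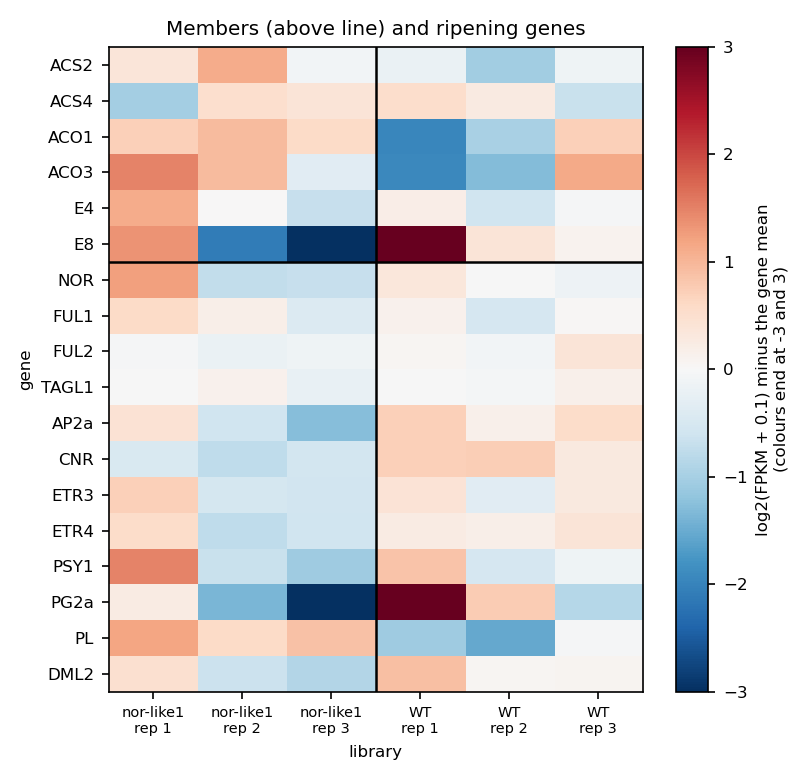
Log2(FPKM + 0.1) minus each gene's mean over 6 libraries, for the 6 tested ethylene genes (above the line) and 12 ripening genes, nor-like1 columns left and WT columns right (colours end at -3 and 3). E8, NOR, PSY1 and DML2 are high in replicate 1 of both genotypes, whereas ACO1 and ACO3 are low in WT replicates 1 and 2.

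The genes whose log2 CPM was most like that of each tested gene over the 6 libraries were sought among 13602 or 13603 described genes whose mean was 5 CPM or more. With so few libraries high coefficients are common: 193 genes reached a Pearson r of 0.95 with ACO1, 64 with E8 and 14 with ACS4. The coefficient takes no account of the size of a change, so a nearly level gene can reach a high r. For E8 the first 3 were DML2 (Solyc10g083630.2, r = 0.995), a DNA demethylase of ripening fruit, an autophagy gene ATG8f (Solyc08g007400.4, r = 0.993) and TDR8 (Solyc03g019710.3, r = 0.991). DML2 measured 50.55, 23.01 and 19.54 FPKM in nor-like1 replicates 1 to 3, against 67.55, 37.48 and 38.33 FPKM in WT, and was not called (log2 fold change -0.60, adjusted p = 0.351). For ACO1 the first was a pectin acetylesterase (Solyc08g005800.4, r = 0.997), at 92.91, 101.3 and 94.45 FPKM in nor-like1 and 53.58, 65.78 and 95.99 FPKM in WT. A U-box gene (Solyc01g068490.5, r = 0.995) and a gene with an RNF4 best hit (Solyc06g007870.3, r = 0.993) came next. ACO3 was most like a UTP23 homolog (Solyc08g008040.3, r = 0.998), which lay between 19.9 and 22.7 FPKM in all 6 libraries. Next came Solyc07g053180.3 (r = 0.996) and a beta-1,3-glucanase (Solyc10g079860.2, r = 0.985). The glucanase measured 34.12, 22.64 and 10.06 FPKM in nor-like1 and 1.11, 2.93 and 34.77 FPKM in WT. E4 was most like a nucleoredoxin 2 gene (Solyc04g081900.4, r = 0.998), a ribokinase-like gene (Solyc08g078370.4, r = 0.991) and Solyc02g071320.4 (r = 0.987). ACS2 was most like an LSm6 gene (Solyc10g078450.2, r = 0.985), a glucose-6-phosphate dehydrogenase gene (Solyc05g015950.3, r = 0.984) and a p24delta9 gene (Solyc05g013130.3, r = 0.982). The dehydrogenase gene lay between 13.67 and 15.41 FPKM in all 6 libraries. ACS4 was most like an RNA polymerase gene (Solyc02g089340.4, r = 0.991), an ERD4-like gene (Solyc08g023440.3, r = 0.982) and Solyc04g078070.5 (r = 0.975).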

How the data were processed

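Expected counts and FPKM per gene and library were deposited by the authors, per the file headers. The submitters' processing notes list RSEM, Bowtie2, StringTie and HISAT2 with no version. Strand setting, genome build and annotation: not given in the sources used here. Each table lists genes above 0, and an unlisted gene was set to 0. Gene descriptions and best protein hits came from the same tables, and RefSeq symbols from assembly SLM_r2.1. The authors also deposited a comparison with log2 fold changes and p-values per gene, which is only set beside the values here.

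Rounded expected counts of 16380 genes that passed filterByExpr went into the robust quasi-likelihood F test of edgeR 4.0.16 (R 4.3.3), with TMM factors and only genotype in the model; Benjamini-Hochberg adjustment ran over all of them and a call is an adjusted p below 0.05. This test gives the adjusted p-values where no other tool is named. Each log2 fold change sets nor-like1 over WT, with SE its size divided by the root of F. Exact two-sided permutation tests used FPKM per library. CPM is the count scaled to library size and TMM factor. DESeq2 1.42.0, limma 3.58.1 on log2(FPKM + 1) or log2(FPKM + 0.1), other scalings and filters, thinning, a replicate block and leaving out each library were the alternatives. The edgeR fit with only genotype was tested on simulated counts, drawn with the same spread parameter for every gene. The other fits were not tested in this way. Between libraries of 1 genotype, chi-square per gene was 9.08 to 40.0, so no library repeated another.

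The 8 genes and the lists were chosen with earlier results of these data known. Named were the 8 genes, SlNOR-like1, the called list genes with those of highest level per step, and for each tested gene the 3 with the highest Pearson r of log2 CPM (mean of at least 5 CPM, prior count 2). NOR, PG2a, ETR3, ACO6, ACS1B, Solyc08g008110.3 and Solyc10g079720.2 were named after their values were seen. Intervals and limits cover counting error only.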

Additional observations from a re-analysis of the deposited data

How the results depend on the processing

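The number of called genes was 3585 and lay between 2626 (replicate block) and 4121 (DESeq2) over the alternatives with all libraries, but between 1139 (without WT replicate 2) and 4742 without 1 library, where the smaller group has 2 libraries. The share of calls that were higher in nor-like1 lay between 45.0 and 54.0% (47.8% in the fit reported). Of the 6 tested ethylene genes, between 0 and 2 were called without 1 library (ACO1 and ACO3 without WT replicate 3). The other synthesis genes gave 12 calls, and between 3 and 15 without 1 library; the ripening genes gave 2, and between 1 and 4.

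Log2 fold changes without 1 library ranged from 0.59 to 1.23 for ACS2, -0.36 to 0.39 for ACS4, 0.71 to 2.16 for ACO1, 0.50 to 2.69 for ACO3, -0.14 to 0.81 for E4 and -4.58 to -0.27 for E8. For the summed ACC synthases the log2 ratio ranged from 0.43 to 1.01, and for the summed ACC oxidases from 0.66 to 2.15. ACS4 was 0.01 with upper-quartile factors and 0.00 with total counts only; the cause was not tested. With the expected counts of ACO1 and ACO3 summed, an alternative chosen after seeing the data like the sums without 1 library and the list genes under each setting, ACO1 stayed within 1.12 to 1.55, the range of its alternatives with all libraries. In 94 of the values recomputed for the 6 tested ethylene genes the direction and the call were the same, 6 reversed and 3 passed the threshold. For the other named genes 192 were the same and 63 lost the call. Some calls were also lost with all libraries kept. The highest adjusted p was then 0.0713 for Solyc08g079750.3, 0.0772 for Solyc09g089690.3, 0.0744 for Solyc09g008280.2, 0.0506 for Solyc10g083970.1 and 0.114 for Solyc04g055230.2.

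Replicate numbers are shared by the genotypes, and no label says that they pair the libraries. Deviations of same-numbered libraries correlated at 0.22, -0.23 and 0.02 for numbers 1, 2 and 3. Of the 6 libraries, 2 correlated best with their own number, and these were the replicate 1 libraries of nor-like1 and WT. With the replicate block, E8 had a log2 fold change of -2.53 and an adjusted p of 0.00695, so that 1 of the 6 ethylene genes was called, and 4 ripening genes were called. Counts were lowest for ACS4 and ACO4, with at most 34 and 8 in any library, among the listed ethylene genes.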
